A study of Arabidopsis thaliana with 44 samples.

Results

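ZAT5, ZAT6, ZAT7, ZAT10, ZAT11, ZAT12, AZF1, AZF2 and AZF3 of Arabidopsis thaliana encode zinc-finger transcription factors of the C2H2 class that plants switch on under stress. They were chosen by locus with earlier results of these data known, and they are 9 of the 34262 genes listed. Each was read from every library. Shares over all genes beside counts of the 9 are therefore a description and not a test of the set. The study compared 44 RNA-seq libraries of plants labelled as 7 days old, in 13 groups. Roots (n = 3 each) were tpst-1, tpst-1 given the peptide PSY5 at 1 uM, and the quadruple mutant tpst/psyr1,2,3. Shoots (n = 4 each) were the same 3 kinds, the wild type and the triple mutant psyr1,2,3. Whole tpst-1 seedlings (n = 3 each) were sampled before PSY5 (0 h) and after 2 h, 6 h, 24 h and 7 d on 1 uM of it. All root and seedling groups thus carry tpst-1, with no wild type beside them, and the seedling series has no untreated plants after 0 h. The 7 d seedlings bear the same age label as the others, so their treatment lasted as long as that age. The labels do not say whether replicates were separate plants or cultures, so p-values measure the spread between these libraries, which may be technical.

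TPST is the tyrosylprotein sulfotransferase that sulfates secreted peptides such as PSY5, so a tpst-1 plant lacks the mature peptides. PSYR1, PSYR2 and PSYR3 are receptor kinases for PSY peptides, which are known to signal when no ligand is bound and to fall silent when PSY is bound. The comparisons therefore ask how the zinc-finger genes stand where the receptors are present without ligand (tpst-1), where ligand is added back (tpst-1 with PSY5), and where the receptors are removed too (tpst/psyr1,2,3). C2H2 factors of this family carry an EAR motif that recruits corepressors of the TOPLESS kind, and most act as transcriptional repressors. Their genes respond within minutes to hours to wounding, reactive oxygen, cold, salt and high light.

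ZAT10, also called STZ, was first known for salt tolerance and is induced by drought, cold, salt and wounding. ZAT12, also called RHL41, responds to high light and hydrogen peroxide, and it is known to hold back the iron-deficiency regulator FIT. ZAT6 acts in phosphate homeostasis, root growth and cold responses and is a substrate of the kinase MPK6. ZAT7 is linked to salt tolerance through its EAR motif, and ZAT11 to nickel sensitivity and primary root growth. AZF1, AZF2 and AZF3 are repressors of the same subfamily, and AZF1 and AZF2 act under osmotic stress and abscisic acid. By RefSeq's annotation of assembly TAIR10.1, ZAT10 (AT1G27730) lies on chromosome 1 (9648021 to 9649323, minus strand). ZAT5 (AT2G28200, 12023940 to 12025370, plus) and ZAT11 (AT2G37430, 15706285 to 15707224, plus) lie on chromosome 2. AZF2 (AT3G19580, 6802903 to 6804296, minus) and ZAT7 (AT3G46090, 16925881 to 16926883, minus) lie on chromosome 3. ZAT6 (AT5G04340, 1216058 to 1217362, minus), AZF3 (AT5G43170, 17330945 to 17331646, minus), ZAT12 (AT5G59820, 24102814 to 24103794, plus) and AZF1 (AT5G67450, 26918765 to 26920179, minus) lie on chromosome 5. AZF2 has 2 annotated exons and the others 1 each, and the coding sequences run from 489 bases in ZAT12 to 861 bases in ZAT5.

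The 300 bases before the annotated transcript start are shown for ZAT10, ZAT12 and ZAT6, which moved in all tissues, and for ZAT5, whose group means spanned the smallest ratio of the 9 in shoots and seedlings. They were read from the TAIR10.1 sequence, on the strand of the gene and 5′ to 3′, and capitals mark matches to the searched motifs on either strand.
ZAT10, chr1:9649324-9649623, minus strand: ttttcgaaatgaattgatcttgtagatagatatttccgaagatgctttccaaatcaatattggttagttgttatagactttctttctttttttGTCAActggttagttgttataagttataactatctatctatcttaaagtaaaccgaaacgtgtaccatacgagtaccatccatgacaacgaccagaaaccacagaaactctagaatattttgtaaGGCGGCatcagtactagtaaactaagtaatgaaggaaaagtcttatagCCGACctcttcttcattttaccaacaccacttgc
ZAT12, chr5:24102514-24102813, plus strand: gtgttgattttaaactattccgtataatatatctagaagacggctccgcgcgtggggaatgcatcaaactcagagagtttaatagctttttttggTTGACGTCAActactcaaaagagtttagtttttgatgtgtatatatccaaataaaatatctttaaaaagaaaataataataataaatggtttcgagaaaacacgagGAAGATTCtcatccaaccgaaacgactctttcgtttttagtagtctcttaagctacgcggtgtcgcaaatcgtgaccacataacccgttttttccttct
ZAT6, chr5:1217363-1217662, minus strand: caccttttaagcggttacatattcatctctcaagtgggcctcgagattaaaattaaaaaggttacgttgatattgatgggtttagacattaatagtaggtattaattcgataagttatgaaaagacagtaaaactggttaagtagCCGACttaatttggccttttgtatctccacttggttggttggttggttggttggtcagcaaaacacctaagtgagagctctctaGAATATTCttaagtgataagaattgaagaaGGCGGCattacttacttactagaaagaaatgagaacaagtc
ZAT5, chr2:12023640-12023939, plus strand: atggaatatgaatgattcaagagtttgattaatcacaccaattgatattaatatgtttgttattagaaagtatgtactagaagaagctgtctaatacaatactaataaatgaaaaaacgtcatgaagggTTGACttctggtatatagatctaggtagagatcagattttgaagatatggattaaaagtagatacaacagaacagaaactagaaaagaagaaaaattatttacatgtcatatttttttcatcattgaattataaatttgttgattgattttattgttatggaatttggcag
The W-box core TTGAC, the sequence bound by WRKY factors, occurred before 7 of the 9 genes, all but ZAT6 and AZF3, and before 50.4% of 27443 protein-coding genes. ZAT12 has a pair of W-box cores back to back on opposite strands. The dehydration-responsive element core CCGAC stood before ZAT6, ZAT10, AZF2 and AZF3 (4 of 9, against 13.9% of genes). The heat shock element unit GAANNTTC stood before ZAT6, ZAT7, ZAT11 and ZAT12 (4 of 9, against 11.5%). The GCC-box GCCGCC, which ERF factors bind, stood before ZAT6 and ZAT10 (2 of 9, against 2.26%), in both on the strand opposite to the gene. In AZF2 a W-box core and a CCGAC share 1 base. The G-box CACGTG (7.09% of genes) and the rapid stress response element core CGCGTT (3.08%) had no match in these windows. A match is a string of letters in a window and says nothing of binding.

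**Figure D1:**
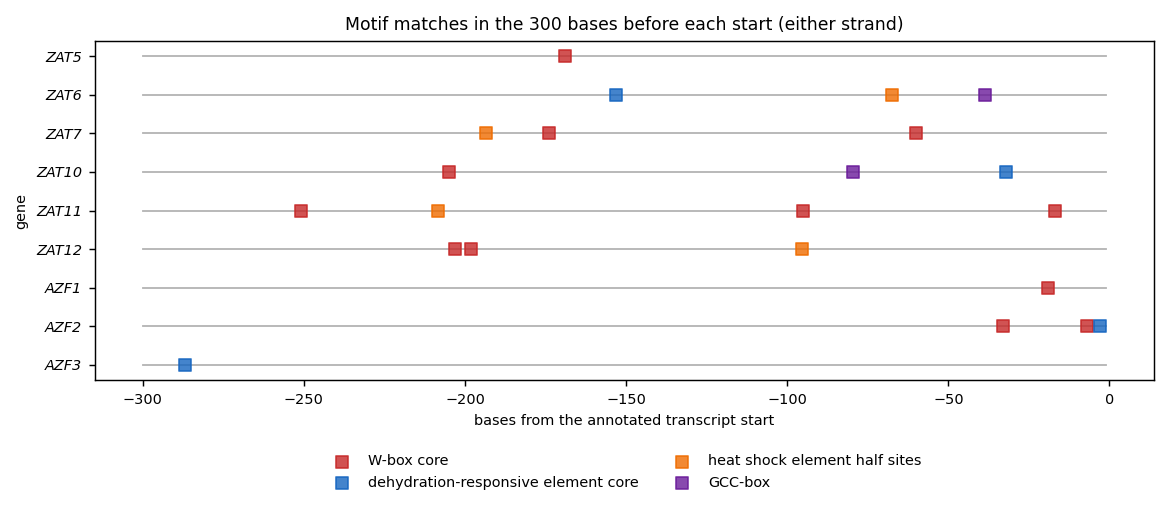
Motif matches on either strand in the 300 bases before each gene, by distance in bases from the annotated transcript start (x axis) and gene (y axis). Squares are matches, coloured by motif. W-box cores stand before 7 of the 9 genes.

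Totals of expected reads were 3206526 to 4133623 per root library, 8610277 to 16816553 per shoot library and 9878853 to 15401969 per seedling library. Low read numbers rose in steps of 1.00 in root libraries and of 1.93 to 1.99 in the others, so a shoot or seedling count stands on about as many fragments as its value divided by that step. Root and shoot libraries thus differ in more than tissue, and the labels name a pair of library kits without saying which samples got which. The 10 green tissue markers summed to 30.7 to 155 TPM in roots and to 44572 to 62158 TPM in shoots. The 10 root markers summed to 581 to 835 TPM in roots and to 0.965 to 14.9 TPM in shoots, where tpst-1 replicate 4 held the 14.9. Replicate 1 of tpst-1 shoots stood apart from its group in clock genes (61.5 TPM in sum against 139 to 158) and in all 3 receptor genes (PSYR1 2.33 TPM against 5.81 to 6.02, PSYR2 1.67 against 7.24 to 7.55). Calls and list results that rest on tpst-1 shoots are for this reason also given without that library. TPST itself read 6.70 ± 1.59 TPM in tpst-1 shoots and 8.55 ± 0.605 in wild type (SD, n = 4 each), a level that does not check the label, since a summed level per gene is blind to where a transcript is cut. Genotypes are therefore given as labelled.

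The summed level of the 9 genes, in TPM (a level per transcript length, scaled to the same total in each library), gives the order of the groups. In roots the sum was 408 ± 88.8 in tpst-1, 173 ± 61.8 with PSY5 and 191 ± 65.8 in tpst/psyr1,2,3 (SD, n = 3 each). In shoots it was 16.2 ± 2.16 in wild type, 129 ± 46.1 in tpst-1, 30.1 ± 5.5 with PSY5, 22.9 ± 7.54 in psyr1,2,3 and 21.3 ± 4.20 in tpst/psyr1,2,3 (n = 4 each). In seedlings it was 186 ± 12.7 at 0 h, 44.3 ± 1.62 at 2 h, 50.6 ± 3.61 at 6 h, 63.2 ± 4.73 at 24 h and 78.2 ± 13.3 at 7 d (n = 3 each). In each tissue tpst-1 without added peptide thus held the top level, and its libraries did not overlap with those of any other group of the tissue. ZAT10 gave the most transcripts of the 9 in tpst-1 roots (40.9% of the sum) and in tpst-1 shoots (39.8%). In wild-type shoots ZAT5 led (35.0%), and in the other shoot groups AZF3 did. Without replicate 1, the tpst-1 shoots had 138 ± 52.1 (n = 3, lowest 77.9). In bulk tissue, fewer expressing cells and less RNA per cell cannot be told apart.

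**Figure D2:**
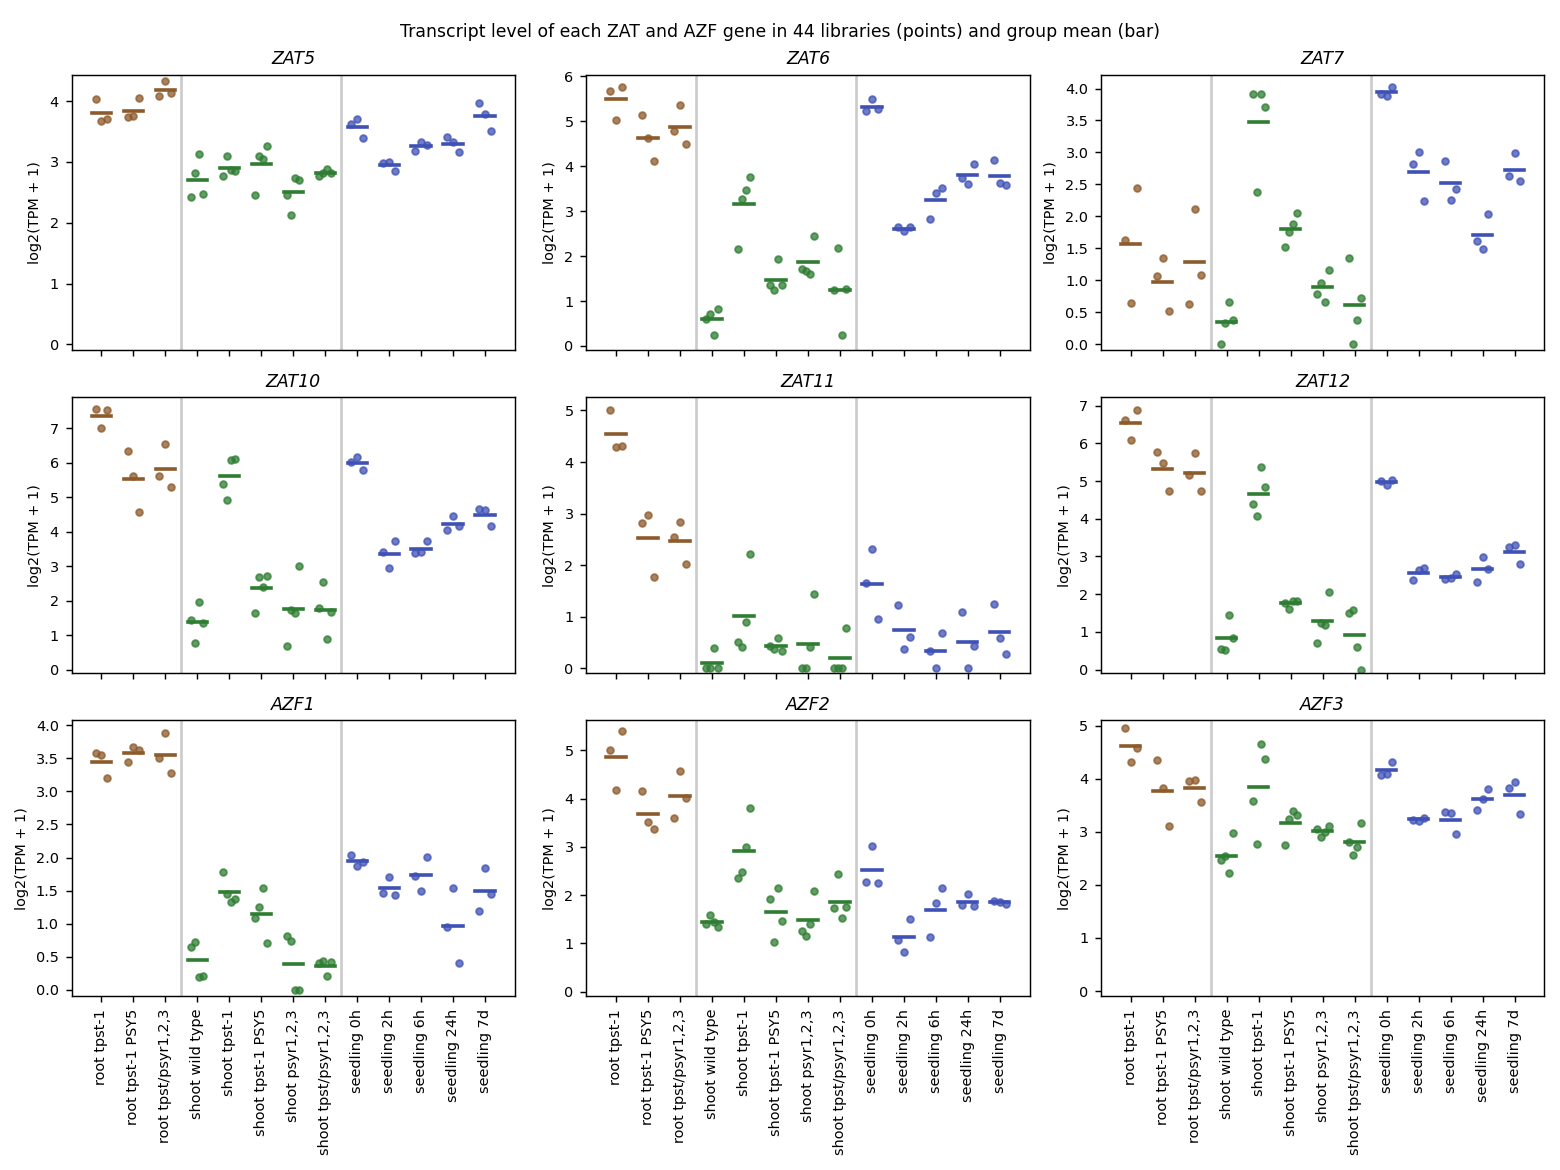
Level of each gene, as log2(TPM + 1) (y axis, each panel on its own scale), in the 44 libraries of 13 groups (x axis). Points are libraries and bars are group means. The tpst-1 roots, tpst-1 shoots and 0 h seedlings stand above the other groups of their tissue for ZAT10 and ZAT12.

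The first comparison asks what added PSY5 does to these genes in roots that lack sulfated peptides. Of the 9, 6 fell and none rose: ZAT6, ZAT10, ZAT11, ZAT12, AZF2 and AZF3. Over all 19958 genes tested, 7.69% fell. The median log2 fold change of the 9 was -1.15, against 0.00 over all genes. The 10 root markers moved the other way, with 6 up and 1 down, from 581 to 591 TPM in sum in tpst-1 roots to 758 to 835 with PSY5. The green tissue markers summed to 57.1 to 84.3 and 30.7 to 44.6 TPM in the same groups, and the part of these tissue differences in the levels of the 9 was not tested. Calls are at an adjusted p below 0.05 by edgeR's quasi-likelihood test, and fold changes are given with the SE.

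ZAT10 stood at 187, 129 and 185 TPM in tpst-1 roots and at 80.8, 48.6 and 22.8 TPM with PSY5. Every treated library lay below every untreated one (log2 fold change -1.72 ± 0.26, adjusted p = 3.89e-05, edgeR). ZAT12 went from 97.5, 67.3 and 116 TPM to 53.8, 43.4 and 25.5 TPM, again without overlap (-1.20 ± 0.21, adjusted p = 0.00027). ZAT11 had the deepest fall of the 9, from 31.0, 18.5 and 18.9 TPM to 6.01, 6.89 and 2.41 TPM (-2.15 ± 0.32, adjusted p = 4.00e-05). AZF2 fell from 31.4, 17.2 and 41.1 TPM to 16.9, 10.5 and 9.42 TPM (-1.27 ± 0.24, adjusted p = 0.000495). In these 4 genes the groups did not overlap, as in 16.8% of all genes tested.

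ZAT6 and AZF3 fell by less, and their groups overlapped. ZAT6 stood at 50.4, 31.4 and 53.4 TPM and at 34.6, 23.9 and 16.3 TPM with PSY5 (-0.86 ± 0.22, adjusted p = 0.00845). AZF3 stood at 30.2, 18.9 and 22.9 TPM and at 19.5, 13.3 and 7.59 TPM (-0.85 ± 0.26, adjusted p = 0.0256). Both calls were lost in limma and DESeq2, the AZF2 call in limma, and in PSY5-treated roots replicate 3 was the lowest library for these 6 genes. The ZAT6 and AZF3 calls were also lost without that library and without tpst-1 replicate 1 (adjusted p up to 0.0774 and 0.173), and the AZF3 call without PSY5 replicate 2.

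ZAT5, AZF1 and ZAT7 were not called. ZAT5 stood at 15.3, 11.7 and 12.1 TPM and at 12.4, 12.4 and 15.5 TPM with PSY5 (0.09 ± 0.17, adjusted p = 0.809). AZF1 was at 11, 10.8 and 8.19 TPM and at 9.94, 11.7 and 11.4 TPM (0.18 ± 0.20, adjusted p = 0.637). Both genes were thus expressed in every root library at a level at which AZF3 or ZAT11 could be called. ZAT7 rested on 1 to 8.03 reads per root library (0.433 to 4.41 TPM), and a change was not detectable at this depth.

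Removing the receptors from tpst-1 roots moved the same genes. Of the 9, ZAT6, ZAT10, ZAT11, ZAT12, AZF2 and AZF3 fell in tpst/psyr1,2,3 roots and none rose, where 7.5% of all genes fell (median of the 9 -0.88, of all genes 0.00). These are the 6 genes that fell with PSY5, in a comparison with the same tpst-1 libraries. The root markers were higher here too (778 to 825 TPM in sum, 5 up and 1 down of 10), and their part was not tested. ZAT10 stood at 47.9, 92.6 and 38.3 TPM in the quadruple mutant (-1.51 ± 0.26, adjusted p = 0.000169). ZAT11 reached 4.87, 6.15 and 3.08 TPM (-2.27 ± 0.34, adjusted p = 3.55e-05), and ZAT12 reached 34.9, 53.0 and 25.8 TPM (-1.34 ± 0.22, adjusted p = 0.000117). AZF3, at 14.6, 14.7 and 10.9 TPM, was the fourth gene without overlap (-0.90 ± 0.26, adjusted p = 0.0219), where 13.4% of all genes lay lower without overlap.

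ZAT6, at 26.4, 40.4 and 21.5 TPM, and AZF2, at 11, 22.7 and 15.1 TPM, overlapped with tpst-1 roots. Their log2 fold changes were -0.65 ± 0.22 (adjusted p = 0.0455) and -0.88 ± 0.23 (adjusted p = 0.0103). Replicate 2 was the highest of the 3 quadruple-mutant libraries for each of the 6 called genes, and it also had the highest sum of green tissue markers in roots (155 TPM), whose part in these levels was not tested. Without replicate 1 or replicate 3 of the quadruple mutant, ZAT6, AZF2 and AZF3 were no longer called (adjusted p up to 0.221, 0.0783 and 0.14). Without tpst-1 replicate 1 ZAT6 and AZF3 were lost, and without tpst-1 replicate 3 ZAT6 and AZF2. Limma made none of these 3 calls, and DESeq2, with 4 calls of 9, did not make those of ZAT6 and AZF3. ZAT5 was at 15.9, 19.1 and 16.7 TPM, above every tpst-1 library, as in 18.2% of genes, but its change was not called (0.36 ± 0.17, adjusted p = 0.169). AZF1, at 10.4, 13.7 and 8.67 TPM, was not called either (0.09 ± 0.21, adjusted p = 0.836).

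Set directly against each other, the PSY5-treated tpst-1 roots and the tpst/psyr1,2,3 roots showed no call among the 9, where 0.536% of all genes were called. At an unadjusted p below 0.05, edgeR and DESeq2 gave 0 of the 9 and limma 1, counts for which no share of all genes is given here. The log2 fold change (quadruple mutant over PSY5) was 0.21 ± 0.30 for ZAT10, -0.14 ± 0.25 for ZAT12 and 0.21 ± 0.24 for ZAT6. ZAT5 alone lay higher without overlap in the quadruple mutant, as did 12.9% of all genes. A p that misses the threshold does not show equal levels.

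Shoots have the wild type as reference, and there the tpst-1 plants stood out. Of 8 genes tested, 7 were higher in tpst-1 than in wild type and none lower: ZAT6, ZAT7, ZAT10, ZAT12, AZF1, AZF2 and AZF3. Over all 20723 genes 7.07% were higher (median of the 8 genes 3.23, of all genes 0.01). Testing needed 1 TPM in at least 4 libraries. AZF1 reached that level in 7 of 20 libraries, all of them tpst-1 shoots with or without PSY5, so it could be tested only because those groups were high, and its call adds nothing to the count. Without it 6 of 7 were higher (median 4.04). ZAT7 reached 1 TPM in 10 of 20 libraries. Outside tpst-1 shoots with or without PSY5, these were psyr1,2,3 replicate 4 (1.24 TPM) and tpst/psyr1,2,3 replicate 1 (1.53 TPM). ZAT7 too could thus be tested only because those tpst-1 groups were high. It is kept in the shoot counts given here, but its calls and its lack of overlap add nothing to them. ZAT11 reached 1 TPM in 2 of 20 libraries and was not tested.

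ZAT10 was at 1.72, 0.718, 2.91 and 1.56 TPM in wild-type shoots and at 41.2, 29.3, 67.1 and 67.6 TPM in tpst-1 (log2 fold change 5.04 ± 0.51, adjusted p = 8.20e-07, edgeR). ZAT12 was at 0.461, 0.434, 1.71 and 0.781 TPM and at 19.98, 15.7, 40.3 and 27.6 TPM (5.06 ± 0.51, adjusted p = 7.89e-07). In wild type that is between 3.90 and 13.7 reads per library, so the size of the fold is less certain than its direction. ZAT7 was at 0, 0.253, 0.571 and 0.302 TPM in wild type (at most 3.90 reads) and at 14.1, 4.19, 14 and 12.1 TPM in tpst-1 (5.48 ± 0.64, adjusted p = 5.27e-06). ZAT6 went from 0.520, 0.638, 0.180 and 0.769 TPM to 3.48, 8.70, 10.2 and 12.5 TPM (4.04 ± 0.51, adjusted p = 1.37e-05). For these 4 genes the lowest tpst-1 library stood above the highest wild-type library.

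The AZF genes rose by less. AZF2 was at 1.65, 2.00, 1.73 and 1.51 TPM in wild type and at 4.09, 4.60, 6.94 and 13 TPM in tpst-1 (2.15 ± 0.37, adjusted p = 0.000449). AZF1 went from 0.563, 0.656, 0.148 and 0.158 TPM to 2.43, 1.72, 1.51 and 1.58 TPM (2.41 ± 0.64, adjusted p = 0.0192). AZF2 thus made 5 of 7 genes without overlap, ZAT7 among them, against 4.55% of all genes. AZF1 did not overlap either, but it was tested through its tpst-1 levels and is not counted. The AZF1 call was lost without tpst-1 replicate 1 and without wild-type replicate 3 or 4. AZF3 was at 4.56, 4.85, 3.65 and 6.89 TPM and at 10.9, 5.79, 24.4 and 19.8 TPM, where tpst-1 replicate 2 lay inside the wild-type range (1.74 ± 0.32, adjusted p = 0.000777). ZAT5 was at 4.34, 6.07, 7.78 and 4.55 TPM and at 5.82, 7.55, 6.33 and 6.25 TPM (0.36 ± 0.23, adjusted p = 0.358). ZAT11 was listed at 0, 0, 0.317 and 0 TPM in wild type and at 0.427, 0.332, 0.859 and 3.63 TPM in tpst-1. The 3.63 came from replicate 4, the shoot library with the most root marker transcripts, whose part was not tested. Without tpst-1 replicate 1, the library that stood apart, ZAT6, ZAT7, ZAT10, ZAT12, AZF2 and AZF3 were still called higher. ZAT10 was then at 4.95 and ZAT12 at 4.99 on the log2 scale.

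The triple mutant psyr1,2,3, which keeps TPST, had 1 call against wild type. ZAT6 was called (1 of 8 tested, against 0.893% of all genes called higher), at 2.28, 2.20, 2.04 and 4.43 TPM against at most 0.769 TPM in wild type (2.19 ± 0.54, adjusted p = 0.0365). Leaving out any library but wild-type replicate 4 lost that call, with adjusted p up to 0.145, and limma did not make it. ZAT6 and ZAT7 lay above every wild-type library, as did 17.3% of all genes. ZAT10 was at 0.613, 2.33, 2.17 and 7.04 TPM (0.69 ± 0.57, adjusted p = 0.641) and ZAT12 at 0.621, 1.35, 1.26 and 3.16 TPM (0.76 ± 0.61, adjusted p = 0.635). Replicate 4 was the highest of this group for ZAT6, ZAT7, ZAT10, ZAT11, ZAT12, AZF2 and AZF3.

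Added PSY5 lowered most of the genes that were high in tpst-1 shoots. Of the 7 tested besides AZF1, 6 fell and none rose, where 3.84% of all genes fell (median of the 7 genes -2.39, of all genes -0.01). The green tissue markers were lower as well, with 4 of 10 called and a sum of 44572 to 49247 TPM against 51989 to 62158 in tpst-1, and their part was not tested. Without tpst-1 replicate 1, 1 of the 10 was called lower. Between tpst-1 and wild-type shoots 0 of 10 were called, and 2 were lower without that replicate. ZAT10 reached 2.13, 5.49, 4.26 and 5.59 TPM with PSY5 (-3.78 ± 0.46, adjusted p = 1.48e-05) and ZAT12 reached 2.41, 2.05, 2.56 and 2.52 TPM (-3.67 ± 0.45, adjusted p = 1.56e-05). ZAT7, at 1.85, 2.36, 2.69 and 3.16 TPM, fell by 2.46 ± 0.47 log2 units (adjusted p = 0.00299). ZAT6, at 1.58, 1.35, 2.80 and 1.55 TPM, fell by 2.39 ± 0.43 (adjusted p = 0.0017), and AZF2, at 2.78, 1.03, 3.44 and 1.77 TPM, fell by 1.96 ± 0.36 (adjusted p = 0.00183). In these 5 genes every PSY5 library lay below every tpst-1 library, against 2.37% of all genes. ZAT7 was tested only because tpst-1 shoots with or without PSY5 were high. Its fall and its lack of overlap therefore add nothing to the counts given here.

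AZF3 was at 5.72, 8.44, 9.49 and 8.99 TPM with PSY5 and overlapped with tpst-1 (-1.12 ± 0.30, adjusted p = 0.0322). That call was lost in limma, in a fit of the compared groups alone, and without any of 7 of the 8 libraries (all but tpst-1 replicate 2). AZF1 was at 1.13, 1.38, 1.91 and 0.635 TPM (-0.85 ± 0.57, adjusted p = 0.393) and ZAT5 at 4.50, 7.52, 7.25 and 8.63 TPM (-0.15 ± 0.22, adjusted p = 0.73). The ZAT5 means in TPM, 6.97 ± 1.76 with PSY5 and 6.48 ± 0.743 in tpst-1, had the opposite order to the fitted counts, which are scaled in another way, so no direction is given. ZAT11 was at 0.269 to 0.493 TPM with PSY5. Without tpst-1 replicate 1, ZAT6, ZAT7, ZAT10, ZAT12 and AZF2 were still called lower, with ZAT10 at -3.69 and ZAT12 at -3.61.

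The treated shoots were then set against wild type, which shows how far the levels came back. ZAT7 alone stayed called higher (3.02 ± 0.70, adjusted p = 0.0122, 1 of 8 against 3.54% of all genes), and it was not called without wild-type replicate 1 (adjusted p = 0.0519). ZAT6, ZAT7 and ZAT12 lay above every wild-type library (3 of 8, against 13.5% of all genes). At an unadjusted p below 0.05 edgeR gave 5 of the 8, ZAT7 and AZF1 among them. Besides ZAT7, their log2 fold changes were 1.25 ± 0.54 for ZAT10, 1.39 ± 0.57 for ZAT12, 1.65 ± 0.55 for ZAT6 and 1.56 ± 0.66 for AZF1. DESeq2 called 2 of the 8. No share of all genes is given here for the unadjusted and DESeq2 counts. ZAT7 and AZF1 were tested only through tpst-1 shoots with or without PSY5, so they add nothing to any of these counts.

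Loss of the receptors took the tpst-1 shoots down as well. The comparisons of tpst-1 shoots with wild type, PSY5 and receptor loss share the same tpst-1 libraries, so their results are not independent. In tpst/psyr1,2,3 ZAT6, ZAT7, ZAT10, ZAT12, AZF2 and AZF3 fell (6 of the 7 tested besides AZF1, against 9.78% of all genes; median of the 7 -2.71, of all genes -0.01). Of the 10 green tissue markers 6 were also called lower (48100 to 52771 TPM in sum), 7 without tpst-1 replicate 1, and their part was not tested. ZAT10 was at 2.46, 4.85, 0.863 and 2.18 TPM (-4.70 ± 0.50, adjusted p = 1.12e-06) and ZAT12 at 1.86, 1.98, 0.520 and 0 TPM (-4.91 ± 0.50, adjusted p = 7.37e-07). ZAT7 was at 1.53, 0, 0.301 and 0.641 TPM (-4.57 ± 0.58, adjusted p = 1.19e-05), and AZF1 at 0.324, 0.345, 0.159 and 0.337 TPM (-3.07 ± 0.69, adjusted p = 0.00396). ZAT7, ZAT10 and ZAT12 lay below every tpst-1 library (3 of 7, against 3.04% of all genes). AZF1 did too, but is not counted. AZF1 and ZAT7 were tested through their levels in tpst-1 shoots with or without PSY5, so their falls add nothing to the count.

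ZAT6 (1.37, 3.54, 0.192 and 1.42 TPM), AZF2 (2.31, 4.42, 1.86 and 2.35 TPM) and AZF3 (6.04, 4.95, 5.60 and 7.97 TPM) overlapped with tpst-1. They fell by 2.71 ± 0.45 (adjusted p = 0.000273), 1.75 ± 0.36 (adjusted p = 0.00192) and 1.66 ± 0.31 log2 units (adjusted p = 0.000962). ZAT5 was at 5.82, 6.03, 6.37 and 6.05 TPM and was not called (-0.50 ± 0.23, adjusted p = 0.143). Without tpst-1 replicate 1, ZAT6, ZAT7, ZAT10, ZAT12, AZF2 and AZF3 were still called lower, with ZAT10 at -4.60 and ZAT12 at -4.84. AZF1 was called there too, but adds nothing, as above. Against wild type the quadruple mutant had 0 calls among 8 genes (7.04% of all genes were called). At an unadjusted p below 0.05 there was 1 gene in edgeR, 1 in DESeq2 and 0 in limma, and no share of all genes is given for these counts. ZAT10 differed from wild type by 0.34 ± 0.58, ZAT12 by 0.14 ± 0.65 and AZF3 by 0.08 ± 0.33 log2 units.

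Against the PSY5-treated shoots, the quadruple mutant had 0 calls among 8 by edgeR (1.29% of all genes were called) and 3 at an unadjusted p below 0.05. DESeq2 called 2, ZAT7 and AZF1, both tested only through tpst-1 shoots with or without PSY5. For the unadjusted and DESeq2 counts no share of all genes is given here. AZF1 stood at 0.159 to 0.345 TPM in the quadruple mutant and at 0.635 to 1.91 TPM with PSY5 (-2.22 ± 0.70, adjusted p = 0.145 by edgeR), and ZAT7 differed by -2.11 ± 0.62 (adjusted p = 0.108). ZAT12 lay lower without overlap in the quadruple mutant, as did 2.56% of all genes, by a narrow gap (at most 1.98 TPM against at least 2.05 TPM with PSY5). AZF1 and ZAT7 did too, but are not counted, since they were tested only through tpst-1 shoots with or without PSY5.

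**Figure D3:**
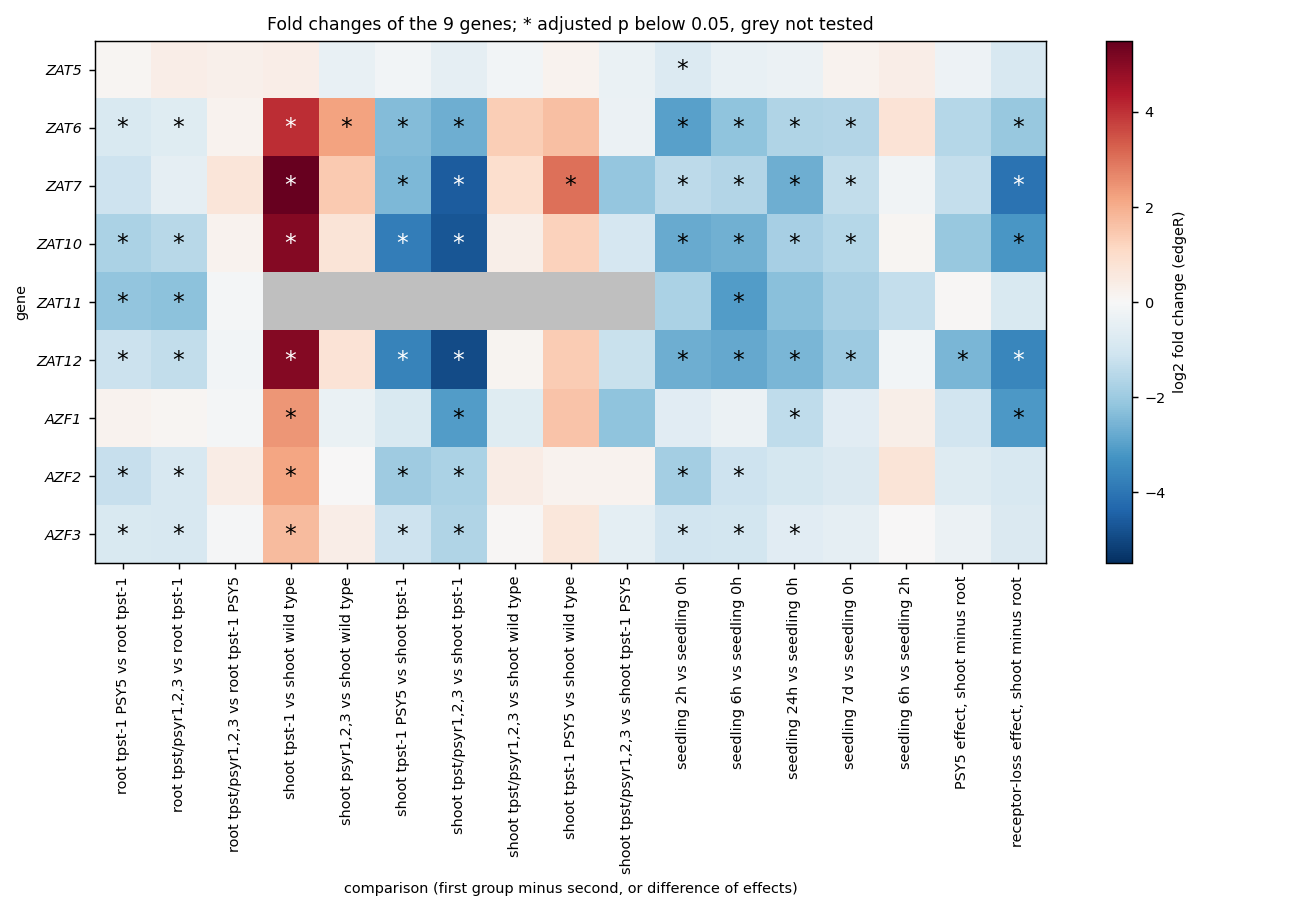
Log2 fold change by edgeR (colour, red higher in the first group) of each gene (rows) in each comparison (columns), with asterisks where adjusted p is below 0.05 and grey where a gene was not tested. The columns with tpst-1 as the second group, and the seedling columns against 0 h, are blue for ZAT6, ZAT10 and ZAT12, and the ZAT5 row stays pale.

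Whether shoots and roots responded to different degrees was tested in a joint fit, as the effect in shoots minus the effect in roots. For PSY5, ZAT12 alone differed (-2.51 ± 0.55, adjusted p = 0.00812, 1 of 9 against 2.16% of all genes with a lower value). ZAT10 came near with -2.10 ± 0.62 (adjusted p = 0.059). For the loss of receptors, 5 of the 9 had a more negative effect in shoots than in roots, as had 3.61% of all genes. They were ZAT12 (-3.59 ± 0.61, adjusted p = 0.000492), ZAT10 (-3.20 ± 0.66, adjusted p = 0.00353), AZF1 (-3.17 ± 0.75, adjusted p = 0.0104), ZAT6 (-2.08 ± 0.56, adjusted p = 0.0279) and ZAT7 (-4.08 ± 1.18, adjusted p = 0.0396). In roots AZF1 (0.09 ± 0.21) and ZAT7 (-0.49 ± 0.72) were not called with receptor loss. AZF1 in tpst/psyr1,2,3 shoots rests on 1.96 to 3.92 reads per library. Limma did not call ZAT12 for PSY5 or ZAT6 for receptor loss, and the ZAT6 call was lost without any of 5 of the 14 libraries. The ZAT7 value rests on few root reads and was lost without any of 7 of the 14 libraries. Without tpst-1 shoot replicate 1 the same genes were called, with ZAT12 at -2.45 for PSY5 and ZAT12 at -3.53, ZAT10 at -3.12, AZF1 at -2.69, ZAT6 at -2.26 and ZAT7 at -3.68 for receptor loss. The levels from which the genes fell differed too, with ZAT10 at 167 ± 32.9 TPM in tpst-1 roots and 51.3 ± 19.2 TPM in tpst-1 shoots, and tissue cannot be told apart from the kind of library.

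The seedling series gives the time course up to 24 h, and a 7 d group treated for as long as its labelled age. That group is therefore not read as a later stage of the course. At 2 h of PSY5, 7 of the 9 had fallen and none had risen, where 8.01% of all 21069 genes fell (median of the 9 -1.73, of all genes 0.00). Since no untreated seedlings were taken after 0 h, time and PSY5 cannot be told apart here. Lower levels without overlap were seen in 8 of the 9, all but ZAT11, against 11.8% of all genes.

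ZAT6 dropped the farthest in percent of its 0 h mean, from 36.5, 43.9 and 37.7 TPM at 0 h to 5.28, 4.88 and 5.22 TPM at 2 h, which is 13 ± 0.541% (log2 fold change -2.98 ± 0.18, adjusted p = 9.72e-11, edgeR). ZAT10 went from 63.7, 71.2 and 55.0 TPM to 9.65, 6.76 and 12.4 TPM (15.2 ± 4.43%, adjusted p = 1.39e-10). ZAT12 went from 31.0, 28.9 and 31.4 TPM to 4.22, 5.20 and 5.47 TPM (16.3 ± 2.16%, adjusted p = 9.75e-10). The SD within a time point was small beside these steps. AZF2 was at 3.83, 7.09 and 3.78 TPM and then at 1.09, 0.762 and 1.83 TPM (25.0 ± 11.1%, adjusted p = 0.000727). ZAT7 was at 14.1, 13.8 and 15.2 TPM and then at 6.06, 7.04 and 3.72 TPM (39.1 ± 11.9%, adjusted p = 0.000312). AZF3 reached 8.40, 8.28 and 8.57 TPM from 15.9, 16.1 and 19.0 TPM (49.6 ± 0.869%, adjusted p = 0.000673). ZAT5, called in none of the root or shoot comparisons, also fell at 2 h, from 11.3, 12.1 and 9.45 TPM to 6.91, 7.00 and 6.25 TPM (61.3% of 0 h, -0.76 ± 0.14, adjusted p = 0.000622). AZF1 (2.66 to 3.11 TPM at 0 h, 1.70 to 2.26 TPM at 2 h) and ZAT11 (0.941 to 3.99 and 0.302 to 1.35 TPM) were not called.

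Longer treatments differed by gene. At 6 h 7 of the 9 were lower than at 0 h (8.56% of all genes), at 24 h 6 (8.63%) and at 7 d 4 (10.8%), and none was higher at any time. The 6 h count was 5 in limma with either pseudocount, which did not call ZAT11 or AZF2, and 5 to 8 with 1 library left out. The AZF2 call at 6 h was also lost without 0 h replicate 2 or 6 h replicate 1. The 24 h count was 7 in DESeq2 and 4 to 6 with 1 library left out. Of the 10 green tissue markers 3 were higher at 6 h and 9 at 7 d (45442 to 48103 TPM in sum at 7 d against 34982 to 39936 at 0 h), and their part was not tested. Lower levels without overlap were seen in 8 of the 9 at 6 h (12% of all genes), 7 at 24 h (12.3%) and 7 at 7 d (14.6%). From 2 h to 6 h no member was called (0 of 9, against 0.019% of all genes called). At an unadjusted p below 0.05 there were 2 in edgeR and DESeq2 and 2 or 3 in limma. No share of all genes is given for these unadjusted counts, so they are not read as a result. ZAT5 and ZAT6 lay higher at 6 h than at 2 h without overlap (2 of 9, against 5.03% of all genes). ZAT6 was at 6.13, 9.52 and 10.5 TPM at 6 h, 12.3, 11.2 and 15.7 TPM at 24 h, and 16.5, 11.4 and 11.1 TPM at 7 d, the last being 33.1 ± 7.79% of its 0 h mean. ZAT10 was at 9.44, 9.76 and 12.3 TPM, then 15.6, 21.2 and 17.1 TPM, then 24.2, 23.9 and 17.1 TPM (34.3 ± 6.36%). ZAT12 was at 4.27, 4.37 and 4.77 TPM, then 4.01, 6.96 and 5.39 TPM, then 8.45, 8.96 and 5.95 TPM (25.6 ± 5.28%). All of these genes were called lower at 7 d too, with log2 fold changes of -1.61 ± 0.16, -1.57 ± 0.16 and -1.99 ± 0.18.

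ZAT7 had its lowest mean at 24 h, with 2.05, 1.81 and 3.10 TPM (16.2 ± 4.77% of 0 h, -2.67 ± 0.28, adjusted p = 3.82e-07). At 7 d it was at 5.18, 6.98 and 4.87 TPM (39.6 ± 7.93%, -1.36 ± 0.24). AZF1 was called at 24 h only, at 0.933, 1.9 and 0.322 TPM (-1.38 ± 0.39, adjusted p = 0.0182), and that call was lost without any of 3 of the 6 libraries. ZAT5 was at 14.6, 12.7 and 10.4 TPM in the 7 d group, 115 ± 18.9% of 0 h (0.18 ± 0.13, adjusted p = 0.406). AZF3, at 13.2, 14.4 and 9.08 TPM at 7 d, and AZF2, at 2.67, 2.63 and 2.54 TPM, lay below all 0 h libraries but were not called (adjusted p = 0.0759 and 0.0938). The 6 h call of ZAT11 (-3.05 ± 0.94, adjusted p = 0.0316) rests on 0 to 3.93 reads per library and was lost in limma and without any of 4 of the 6 libraries, and the 24 h call of AZF3 without any of 5 of the 6.

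**Figure D4:**
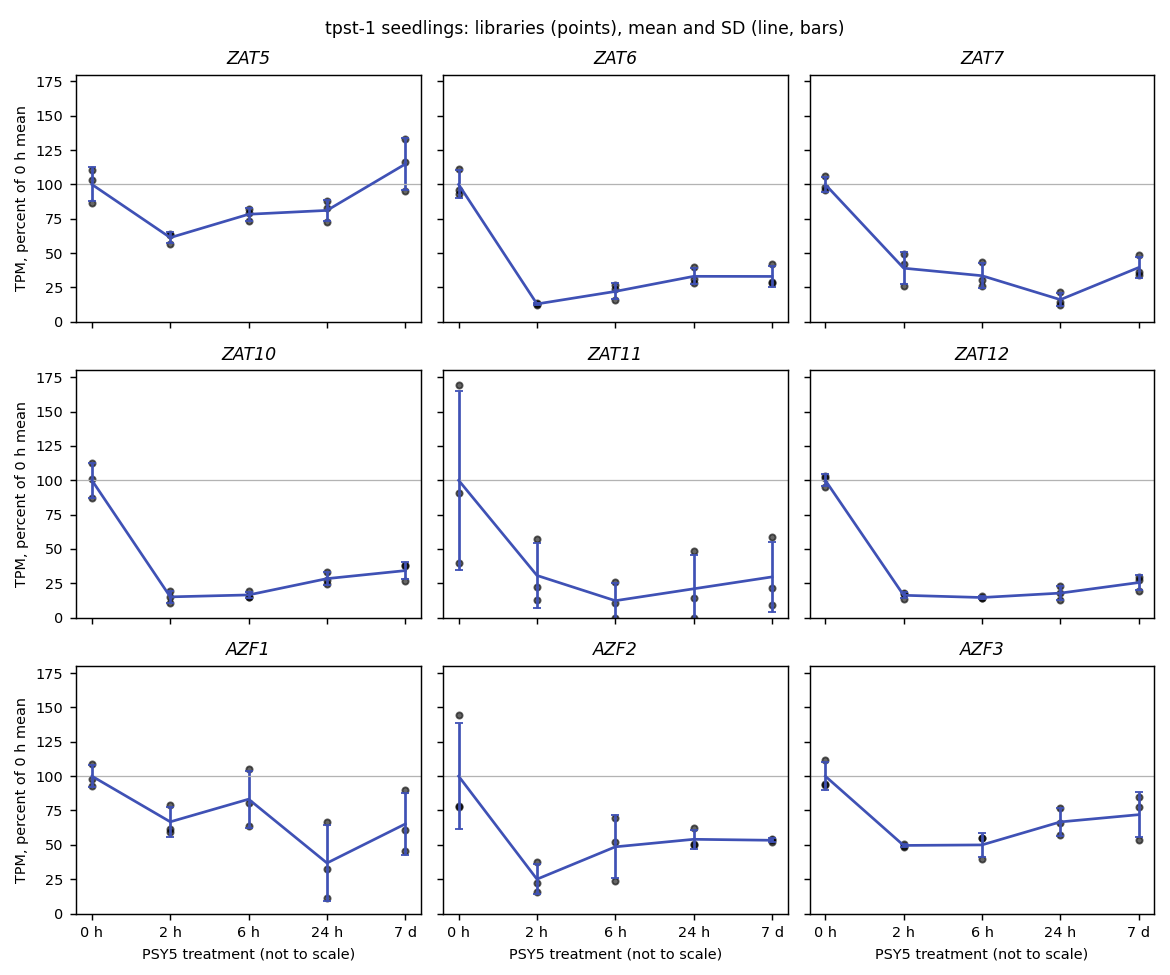
Level of each gene in tpst-1 seedlings in percent of its 0 h mean (y axis) against the time of PSY5 treatment (x axis, not to scale). Points are libraries, and lines and bars are mean and SD (n = 3). ZAT6, ZAT10 and ZAT12 lie at 13% to 16.3% at 2 h, and ZAT5 lies at 115% in the 7 d group.

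How alike the 9 genes behaved was described by Pearson's r across the 13 group means of log2(TPM + 1), each centred on its tissue mean. These means share libraries and tissues, so r is given without a p. Of the 36 pairs, 9 had an r over 0.9 and 10 an r under 0.5, with a median of 0.730. ZAT10 and ZAT12 were the closest pair (0.982). Against the mean of the other 8, ZAT12 (0.980), ZAT10 (0.977) and AZF3 (0.949) were the most typical, ZAT6 and AZF2 were at 0.90, ZAT7 was at 0.888, and ZAT11 (0.708), AZF1 (0.676) and ZAT5 (0.373) followed last. Among 12489 other genes, SRC2 (0.988), AT3G10930 (0.985), AT4G27280 (0.982), AT3G04640 (0.981), AT1G25400 (0.977), PAP1 at AT2G01180 (0.976), TET8 (0.971) and AT1G07135 (0.971) followed the mean profile of the 9 most closely. AT4G27280, for example, averaged 180, 62.3 and 66.6 TPM in tpst-1, PSY5-treated and tpst/psyr1,2,3 roots, and 9.57, 91.5 and 16.0 TPM in wild-type, tpst-1 and PSY5-treated shoots.

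Genes known to act upstream of the family moved the same way in part. The list held MPK3 and MPK6, HSFA4A, CAMTA3, the NADPH oxidases RBOHD and RBOHF, the kinase OXI1 and WRKY33. In roots 5 of 8 fell with PSY5 and 5 of 8 in tpst/psyr1,2,3, and none rose (medians -1.12 and -0.93). RBOHD, which makes the apoplastic oxidative burst, fell by 1.26 ± 0.13 with PSY5 (adjusted p = 1.82e-07), from 60.7 to 24.8 TPM. WRKY33, a WRKY factor of defence, fell by 1.51 ± 0.21 (adjusted p = 1.14e-05). In tpst-1 shoots 4 of 7 stood above wild type, namely MPK3 (1.23 ± 0.14), WRKY33 (2.55 ± 0.33), HSFA4A (1.30 ± 0.18) and RBOHD (1.02 ± 0.21). PSY5 lowered 2 of the 7 in shoots, MPK3 (-0.84 ± 0.14) and HSFA4A (-0.79 ± 0.18), and receptor loss lowered 3. Without tpst-1 shoot replicate 1 these counts were 5, 3 and 5 of 7. WRKY33 was still above wild type with PSY5 (1.56 ± 0.33, adjusted p = 0.00633). In seedlings 6, 6, 7 and 6 of 8 were lower at 2 h, 6 h, 24 h and 7 d.

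The corepressors TPL, TPR1 to TPR4 and SAP18, through which EAR-motif factors act, had 0 calls of 6 in every comparison but one, the tpst/psyr1,2,3 roots, where TPL rose by 0.20 ± 0.06 (adjusted p = 0.0281). Without tpst-1 shoot replicate 1, 1 of the 6 corepressors was called higher in tpst-1 than in wild-type shoots. In that setting 1 was also called lower in the receptor-loss difference between shoots and roots. Genes of touch and wounding moved with the members in the comparisons with untreated tpst-1 roots or shoots. In the PSY5 effect, shoots minus roots, the medians had opposite signs (0.71, against -1.06 for the members). All 8 (TCH2, TCH3, TCH4, CML37, CML38, CML39, WRKY40 and JAZ10) fell in PSY5-treated roots (median -2.24), and 7 fell in tpst/psyr1,2,3 roots. In shoots 6 of 6 tested were higher in tpst-1 than in wild type (median 2.53), 4 fell with PSY5 and 6 with receptor loss. Without tpst-1 replicate 1 the counts were 6, 5 and 6. Their summed level was 108 to 172 TPM in wild-type shoots, 471 to 951 in tpst-1 shoots and 244 to 327 with PSY5. In seedlings it was 745 to 841 TPM at 0 h and 230 to 295 at 2 h. These genes answer to handling as well, and whether harvest or treatment by hand had a part in the levels of the zinc-finger genes was not tested.

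Of 15 genes reported as targets or partners of the family, the cold regulators CBF1 and CBF2 fell with PSY5 in both roots and shoots. CBF2 fell by 2.15 ± 0.34 in roots with PSY5 (adjusted p = 7.18e-05) and by 1.74 ± 0.33 with receptor loss. In shoots it was 3.04 ± 0.36 higher in tpst-1 than in wild type (adjusted p = 5.81e-06) and fell by 4.11 ± 0.39 with PSY5 and by 2.46 ± 0.34 with receptor loss. Without tpst-1 replicate 1 these CBF2 values were 2.98, -4.04 and -2.39, all still called. CBF1 fell with PSY5 in roots (-1.89 ± 0.45) and shoots (-3.70 ± 0.62). APX1, the cytosolic ascorbate peroxidase that depends on ZAT12 under oxidative stress, changed little (0.19 ± 0.05 in PSY5-treated roots, adjusted p = 0.0109). The list as a whole split, with 4 up and 2 down of 11 in PSY5-treated roots, 3 up and 0 down of 13 in tpst-1 shoots (5 up and 0 down without replicate 1), and 1 up and 3 down of 12 at 2 h. With PSY5 in shoots 1 rose and 2 fell of 13, and without tpst-1 replicate 1, 3 rose and 4 fell. Against wild type the PSY5-treated shoots had 0 up and 1 down of 13. Against PSY5-treated shoots the tpst/psyr1,2,3 shoots had 3 up and 0 down, where no member was called.

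**Figure D5:**
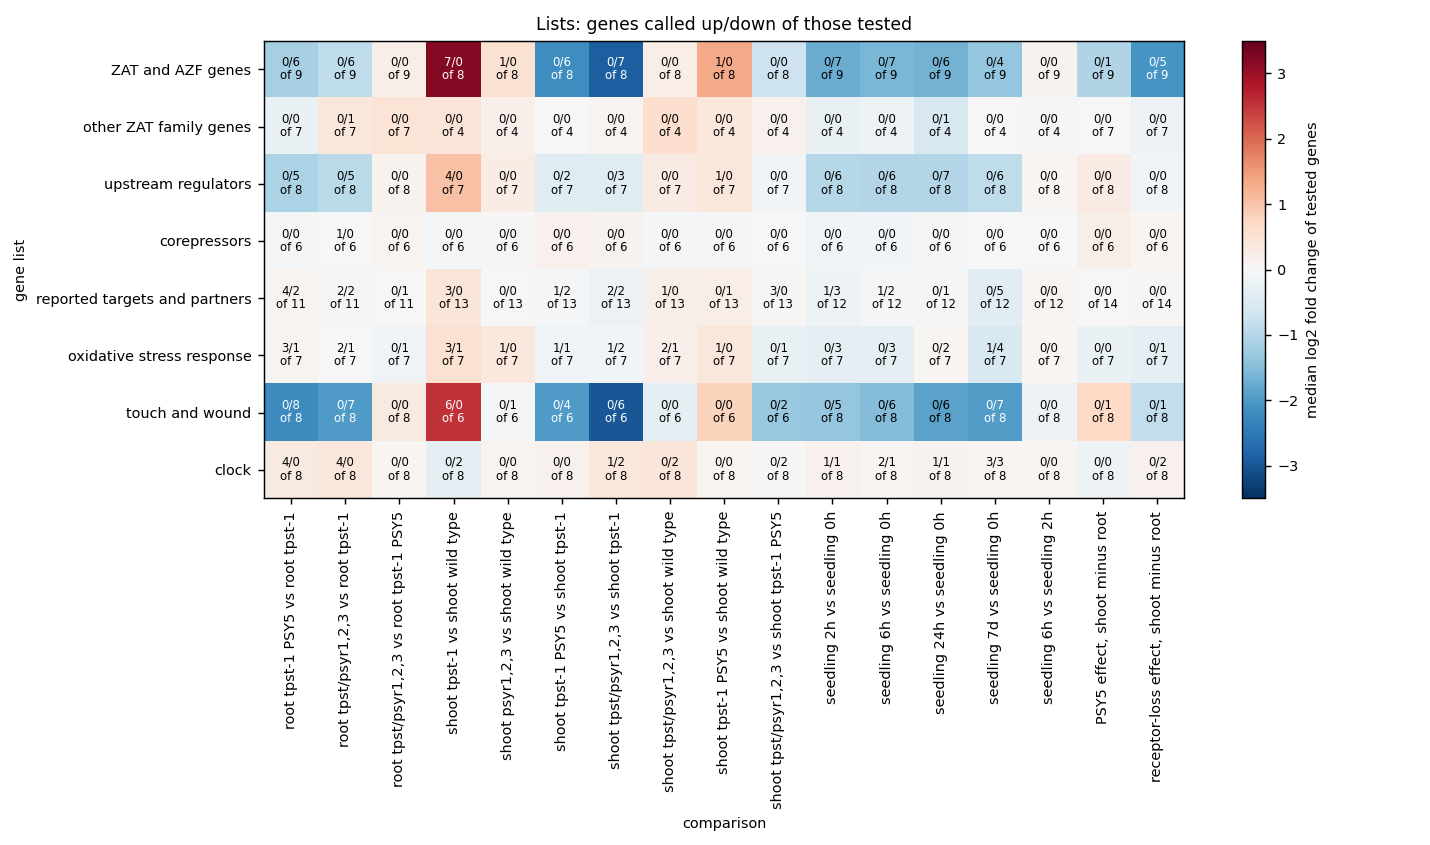
Median log2 fold change (colour) of the tested genes of each list (rows) in each comparison (columns). Numbers give the genes called up and down of those tested. The row of touch and wound genes has the colours of the row of ZAT and AZF genes in the comparisons with untreated tpst-1 roots or shoots. In the PSY5 effect, shoots minus roots, their medians have opposite signs (0.71 and -1.06). The row of corepressors stays pale.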

How the data were processed

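The 44 libraries were made from total RNA, and per the labels' protocols a TruSeq v2 kit on a MiniSeq and a NEBNext Ultra II kit on a NextSeq550 were used, without saying which samples got which. The authors deposited 1 table per library with estimated counts of reads per gene (expected counts) and TPM for 34262 genes, per the file headers. Build TAIR10 is named in the submitters' processing notes, while the program that made the counts is not named in the sources used here. After rounding to integers, these counts went into edgeR 4.0.16 (R 4.3.3; TMM factors, quasi-likelihood F test), in 1 fit each for roots, shoots and seedlings and 1 joint fit over both root and shoot libraries. A gene needed at least 1 TPM in 3 libraries (roots, seedlings) or 4 libraries (shoots, joint fit), which left 19958, 20723, 21069 and 22771 genes. P-values were adjusted by Benjamini-Hochberg over all genes tested, with a threshold of 0.05. The SE of a log2 fold change is its size over the square root of F. Alternatives were median-of-ratios factors, no filter, a filter at 5 TPM, DESeq2 1.42.0, limma 3.58.1 on log2(TPM + 1) and log2(TPM + 0.1), a replicate block, the compared groups alone and each library left out. Since low read numbers came in steps of nearly a pair of reads in shoots and seedlings, a fit on reads divided by that step was added after seeing the data. The fit was tested on simulated data. Promoters are the 300 bases before each RefSeq transcript start in TAIR10.1. The 9 genes and the other lists were chosen with earlier results of these data known. From each list up to 4 called genes with the smallest adjusted p were named in a comparison, and APX1 was added for its known link to ZAT12 after its values were seen. The 8 genes with the highest r to the mean profile were named as well. Of the gene IDs 32548 matched the RefSeq table.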

Additional observations from a re-analysis of the deposited data

Results flagged for a closer look

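Dixon's criterion at the 95% level was applied to 45 sets of 4 shoot libraries (9 genes in 5 groups). In 6 of them a library lay far from the other 3. Chance flags about 1 in 20 for continuous values, and that rate does not hold for sets with few reads, so no excess is read from this count. ZAT6 was high in replicate 3 of PSY5-treated tpst-1 shoots (2.80 TPM against 1.35 to 1.58) and in replicate 4 of psyr1,2,3 shoots (4.43 TPM against 2.04 to 2.28). ZAT11 was high in tpst-1 replicate 4 (3.63 TPM against 0.332 to 0.859). It was also flagged in wild-type replicate 3 (0.317 TPM, 1.95 reads) and in tpst/psyr1,2,3 replicate 4 (0.708 TPM, 3.92 reads). The other libraries of both groups had no reads, so any level in a single library would have been flagged there. AZF1 was low in tpst/psyr1,2,3 replicate 3 (0.159 TPM against 0.324 to 0.345), which is 1.96 reads against 3.91 to 3.92.

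The effect of PSY5 was larger in shoots than in roots for ZAT12, by -2.51 on the log2 scale in the test of the difference. The effect of receptor loss was larger in shoots for ZAT6 (-2.08), ZAT7 (-4.08), ZAT10 (-3.20), ZAT12 (-3.59) and AZF1 (-3.17). Tissue and kind of library cannot be told apart in these differences.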

How the results depend on the processing

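Counts are of the 9 genes called at an adjusted p below 0.05. With limma on either pseudocount, 3 fell in each root comparison with tpst-1 instead of 6, none differed between shoots and roots in the PSY5 effect, and ZAT6 was not called in psyr1,2,3 shoots (0). With log2(TPM + 0.1), 3 fell with PSY5 in shoots and 3 differed in the receptor-loss effect. A filter at 5 TPM left ZAT6, ZAT7, AZF1 and AZF2 untested in shoots and gave 3, 3 and 3 calls for tpst-1 against wild type, PSY5 and receptor loss, and 0 for psyr1,2,3 and for PSY5 against wild type. Against wild type, PSY5-treated shoots had 2 calls with DESeq2 and 3 in a fit of those groups alone, and against PSY5-treated shoots tpst/psyr1,2,3 had 2 and 1. Replicate numbers did not pair the samples (correlations of same-numbered libraries from -0.131 to 0.108; 5 of 9 root, 8 of 20 shoot and 1 of 15 seedling libraries were closest to their own number), and the replicate block took the psyr1,2,3 count to 0. With 1 library left out, counts ran from 3 to 6 for receptor loss in roots, 0 to 1 for psyr1,2,3 against wild type, 0 to 1 for tpst/psyr1,2,3 against wild type, 0 to 1 for PSY5 against wild type, 1 to 2 for the PSY5 difference and 3 to 5 for the receptor-loss difference. With reads divided by their step, an alternative chosen after seeing the data, 2 differed in the PSY5 effect. The cause was not tested. No gene called in the reported fit or in the alternative changed direction. Of 2353 single-gene values, 67 changed sign, none of them called. Counts of 3 reads or fewer, as for ZAT11 in shoots, limit what could be seen.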

Other observations

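Of 10 further genes of the ZAT family, AT3G46080 fell in tpst/psyr1,2,3 roots, where it averaged 2.94 TPM against 14.4 in tpst-1 roots (-2.29 ± 0.39 on the log2 scale, edgeR adjusted p = 0.00019), and AT3G60580 fell in seedlings at 24 h (-1.34 ± 0.38, adjusted p = 0.0213). No other of the 10 was called in the comparisons made. AT3G46080 neighbours ZAT7 on the chromosome and is of the same family, and how reads were shared between them was not tested.

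Of 7 genes of the oxidative stress response, BAP1, an inhibitor of cell death, moved with the zinc-finger genes. It averaged 87.3 ± 18.6, 26.7 ± 15.1 and 32.7 ± 17.1 TPM in tpst-1, PSY5-treated and tpst/psyr1,2,3 roots (SD, n = 3 each). In shoots it was 4.22 ± 0.66 higher on the log2 scale in tpst-1 than in wild type (adjusted p = 0.000173, edgeR) and fell by 3.82 ± 0.63 with PSY5. Without tpst-1 shoot replicate 1 these values were 4.07 and -3.67, both still called. In seedlings it fell by 1.95 ± 0.34 at 2 h. The list as a whole split, with 3 up and 1 down in PSY5-treated roots, 2 up and 1 down in tpst/psyr1,2,3 roots and 3 up and 1 down in tpst-1 against wild-type shoots. Without tpst-1 shoot replicate 1, 2 were up and 1 down against wild-type shoots. In shoots 1 rose and 1 fell with PSY5, and 1 rose and 2 fell with receptor loss, both the same without that replicate. In seedlings 3, 3, 2 and 4 fell at 2 h, 6 h, 24 h and 7 d, and 1 rose, at 7 d.

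Of 8 clock genes, 4 rose in PSY5-treated roots and 4 in tpst/psyr1,2,3 roots, LHY by 0.53 and 0.65 on the log2 scale. In tpst-1 shoots LHY (-0.52) and CCA1 (-0.51) were lower than in wild type. That includes replicate 1, whose clock genes stood apart from its group. Without it the values were -0.45 and -0.37, both still called. Whether harvest time had a part in the levels of the zinc-finger genes was not tested.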
